A study of Rattus norvegicus with 6 samples.

Results

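The AP-1 family of transcription factors was followed in rat nucleus pulposus cells (NPCs), the cells of the soft core of the intervertebral disc. The family was taken as 8 symbols, the Fos proteins Fos, Fosb, Fosl1 and Fosl2, the Jun proteins Jun, Junb and Jund, and the related factor Atf3. Members were found by symbol in the combined count table, which has 20264 rows. Of the 8, 6 have a row there and all 6 passed the filter on low counts, while Fosl2 and Junb were not analysed here.

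AP-1 is a dimer of basic leucine zipper proteins. Jun proteins pair with each other or with Fos proteins, whereas Fos proteins need a Jun partner to bind DNA. Fos and Fosb are immediate-early genes, transcribed within minutes of growth factor or stress signals that pass through MAP kinases, SRF and CREB, and AP-1 is known for driving matrix-degrading proteases in cartilage and disc cells.

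RNA-seq compared a TBHP group with a TBHP+FGF21 group, 3 libraries each, to ask how FGF21 alters the transcriptome of stressed NPCs. Primary NPCs came from the tail discs of wild type male Sprague-Dawley rats of 120 to 150 g and were grown in medium with 15% serum. All cells received tert-butyl hydroperoxide (TBHP), an organic oxidant used to bring on senescence, and the TBHP+FGF21 group also received recombinant rat FGF21, a hormone of the fibroblast growth factor family. No library of cells without TBHP was analysed here, so every value compares FGF21 on top of TBHP with TBHP alone. The treatment labels of replicates 2 and 3 of the TBHP+FGF21 group name FGF22 and FGF23, whereas the series as a whole names FGF21, and the group was taken from the titles. The replicates are described as biological, with nothing on whether they came from separate rats, so p-values measure the spread between these libraries.

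Libraries held between 18277732 and 22426190 counts, and levels are given as CPM, counts scaled to a library of fixed size after TMM normalization. Replicate 2 of the TBHP+FGF21 group stood apart from its group. Its median absolute log2 difference from the TBHP libraries was 0.12 to 0.13, against 0.18 from replicate 1 and 0.21 from replicate 3 of its own group. For 71.0% of genes it was nearer the TBHP mean than the mean of the other libraries of its group. The TBHP group was not uniform either. TBHP replicate 3 differed by 0.17 from each of TBHP replicates 1 and 2. It differed by 0.15 and 0.12 from TBHP+FGF21 replicates 1 and 2, and by 0.18 from replicate 3. Without TBHP replicate 3, 1771 of 11562 genes had an unadjusted p under 0.05 by edgeR, and 0 passed the adjusted p. Values without TBHP+FGF21 replicate 2 are given beside those with it for the members and for the genes on which a result turns. Since it was set apart by its likeness to the TBHP group, a comparison without it is chosen on a measured outcome, its p-values are too small, and its calls are descriptions of the other 5 libraries. Of 11426 genes tested, 1 passed an adjusted p under 0.05, Sirt1, named because it is the lone call and not by a rule. None passed with the unstranded counts of the per-sample files, where 1082 genes had an unadjusted p under 0.05, and 867 of 11559 passed without replicate 2.

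The nucleus pulposus identity was present in part. Summed over the nucleus pulposus and notochord markers, of which 14 of 15 have a row, the level was 2772 to 3219 CPM in the TBHP libraries and 3888, 3142 and 4820 CPM in TBHP+FGF21 replicates 1, 2 and 3. The aggrecan gene Acan carried most of that sum, while the notochord genes Tbxt, Noto and Shh were at 0 in all 6 libraries. Other markers were near the floor, with Col2a1 at 9 to 14 counts, Foxa2 at 1 to 10 and Krt18 at 3 or fewer. Of the 14, 8 passed the filter on low counts. Fibroblast and annulus markers summed to 42886 to 47366 CPM and to 41538, 44820 and 32519 CPM. The collagen gene Col1a1 carried most of this sum, at 38265 to 42463 CPM and at 36809, 40114 and 27868 CPM. In the same list Tnmd was at 0 in all 6 libraries, and the row of Col1a2 held 7 to 17 counts. Of 8 tested markers in this list, 4 were higher and 4 lower in TBHP+FGF21. Macrophage markers stayed at or under 2.57 CPM in sum with Ptprc, Adgre1, Cd163 and Mrc1 at 0, and endothelial markers stayed at or under 1.10 CPM with Cdh5 and Kdr at 0. Replicate 2 was inside the TBHP range for both the nucleus pulposus and the fibroblast sum. In bulk RNA, fewer cells of a type and less RNA per cell cannot be told apart.

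Fos and Fosb were the members with higher mRNA levels in all 3 TBHP+FGF21 libraries than in any TBHP library, replicate 2 included. Fos was 1.63 times and Fosb 1.36 times as high in the mean. Fosl1, Jun, Jund and Atf3 overlapped between the groups. No member passed the adjusted p with all 6 libraries, against a background of 0.00875% of genes called, so none is called changed from the full set. Groups that did not overlap, with TBHP+FGF21 higher, made up 2 of 6 members and 4.9% of all genes tested. An unadjusted p under 0.05 with a higher level in TBHP+FGF21 was found for the same 2 of 6 members and for 4.63% of all genes, and a p under 0.05 in either direction for 8.92% of genes. Without replicate 2 it was found for 4 of 6 members, Fos, Fosb, Jun and Atf3, all higher, where 11.6% of genes had such a p with a higher level and 23.6% in either direction.

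**Figure D1:**
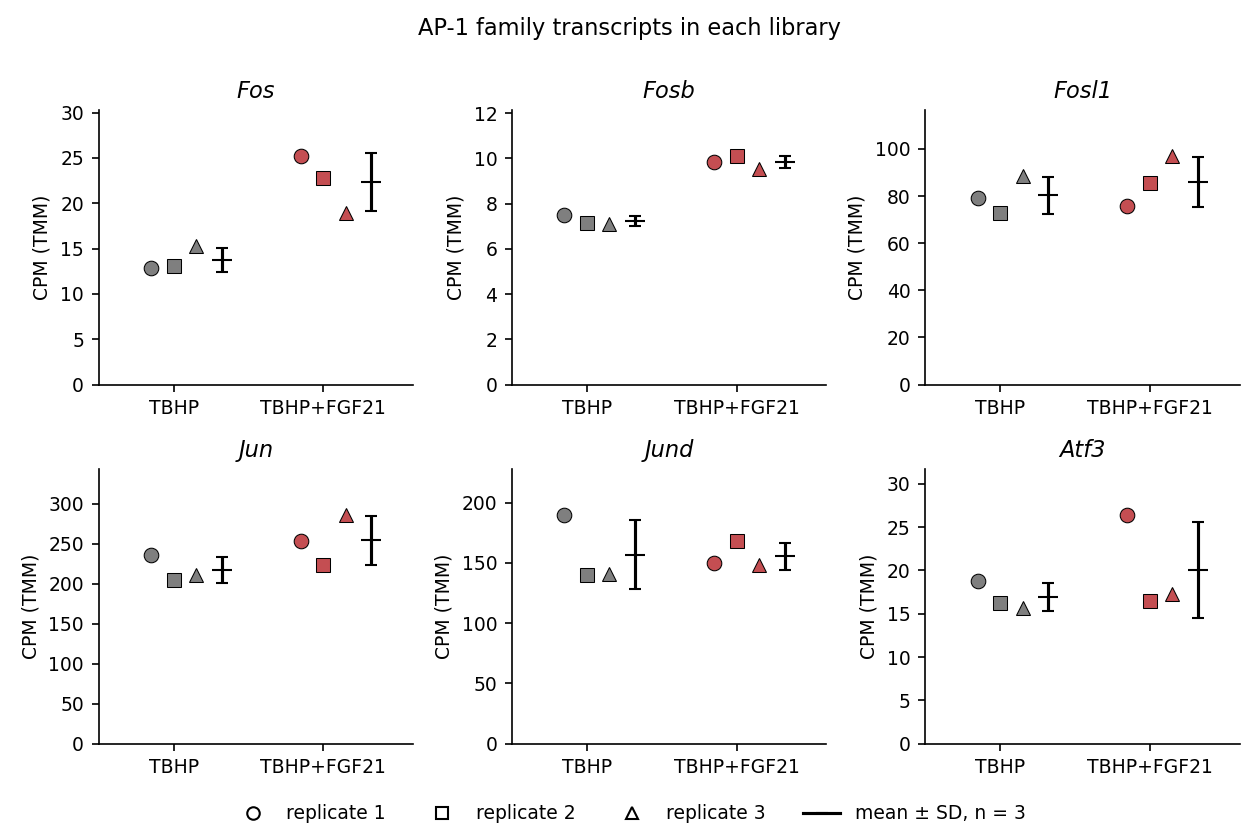
Level of each AP-1 member in CPM after TMM normalization (vertical axes, each from 0) in the 3 TBHP libraries (grey) and the 3 TBHP+FGF21 libraries (red), with the replicate given by the symbol and the mean ± SD (n = 3) beside it. Fos and Fosb do not overlap between the groups, the other 4 members do, and Atf3 is high in TBHP+FGF21 replicate 1 alone.

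Fos, the founding Fos protein, was at 12.9, 13.1 and 15.3 CPM in TBHP replicates 1, 2 and 3 and at 25.2, 22.8 and 19.0 CPM in TBHP+FGF21 replicates 1, 2 and 3. The gene (ENSRNOG00000008015 by its counts, chromosome 6 in RefSeq's GRCr8) rested on 230, 288 and 326 counts and on 532, 477 and 435 counts. All 3 TBHP+FGF21 libraries lay above all 3 TBHP libraries, and the lowest of the former was 1.24 times the highest of the latter. Group means were 13.7 ± 1.35 CPM under TBHP and 22.3 ± 3.15 CPM under TBHP+FGF21 (each SD, n = 3). This was a log2 fold change of 0.70, with 0.14 as its standard error and 0.40 to 1.00 as its 95% interval. In the quasi-likelihood test of edgeR, Fos had an unadjusted p of 0.000236, which ranked 3 among 11426 genes, and a Benjamini-Hochberg adjusted p of 0.553.

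Whether Fos was called depended on the test and on replicate 2. Without replicate 2 of the TBHP+FGF21 group Fos had a log2 fold change of 0.69 and an adjusted p of 0.00845 by edgeR, where 7.5% of genes were called and 3.78% were called as higher. By the DESeq2 Wald test on all 6 libraries Fos rose, with an adjusted p of 0.0216 and 0.035% of genes called (Aldh1a3, Fos, Sik1 and Sirt1, named because they are all the calls). In the 16 alternative settings its adjusted p ran from 0.00845 to 0.982 by the tool of each setting, while its log2 fold change stayed between 0.62 and 0.81. An exact two-sided permutation test gave p = 0.1, the smallest that 3 libraries against 3 allow.

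Fosb, the paralog of Fos that also yields the long-lived delta-FosB form, was at 7.48, 7.12 and 7.08 CPM in the TBHP libraries and at 9.85, 10.1 and 9.55 CPM in the TBHP+FGF21 libraries. The gene (ENSRNOG00000046667, chromosome 1) rested on 134, 157 and 151 counts and on 208, 211 and 219 counts. Its groups were separated by more than the range inside either, with the lowest TBHP+FGF21 library at 1.28 times the highest TBHP library. The coefficient of variation was 3.10% in the TBHP group and 2.81% in the TBHP+FGF21 group, where counting error alone would give 6.86% in the latter. These replicates lay closer together than counting error alone would leave them on average. Means were 7.23 ± 0.224 CPM and 9.83 ± 0.277 CPM (each SD, n = 3), a log2 fold change of 0.44 with a standard error of 0.13 and a 95% interval of 0.16 to 0.73.

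The quasi-likelihood test of edgeR gave Fosb an unadjusted p of 0.00563 and an adjusted p of 0.553. Leaving out any 1 library kept its log2 fold change between 0.43 and 0.48. Without TBHP+FGF21 replicate 2 its adjusted p by edgeR was 0.0958, so Fosb passed in neither fit. The exact permutation p of Fosb was likewise 0.1.

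The third Fos protein measured, Fosl1 or Fra-1, did not follow Fos and Fosb. It lacks the transactivation domain of Fos and Fosb, and it was at 79.3, 72.8 and 88.7 CPM in the TBHP libraries and at 75.7, 85.4 and 97.0 CPM in the TBHP+FGF21 libraries. The groups overlapped, with TBHP+FGF21 replicate 1 below the TBHP mean and replicate 3 above every other library. Its log2 fold change was 0.10 with a 95% interval of -0.14 to 0.35 (unadjusted p = 0.389 by edgeR). The interval excludes a change as large as the one measured for Fos, but it does not show that the level was equal.

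Because Fosl1 held most of the summed counts of Fos, Fosb and Fosl1, the make-up of those counts was also compared. Fosl2, which was not analysed here, is not part of them. Fos and Fosb together gave 20.4%, 21.7% and 20.1% of these counts in the TBHP libraries and 31.7%, 27.8% and 22.7% in the TBHP+FGF21 libraries. The share was higher in every TBHP+FGF21 library than in any TBHP library, by a narrow margin in replicate 3, where Fosl1 was also at its highest. These are shares of counts, which also depend on transcript length, and not of transcripts.

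Jun, the main partner of Fos, was at 235, 204 and 210 CPM in the TBHP libraries and at 253, 224 and 286 CPM in the TBHP+FGF21 libraries. In 8 of 9 pairs the TBHP+FGF21 library was the higher, the exception being its replicate 2 against TBHP replicate 1. Means were 217 ± 16.4 CPM under TBHP and 254 ± 30.9 CPM under TBHP+FGF21 (each SD, n = 3). The log2 fold change of Jun was 0.23 with a 95% interval of -0.01 to 0.47 and an unadjusted p of 0.0556 by edgeR. It depended on the libraries used, at 0.15 without TBHP+FGF21 replicate 3 and at 0.32 (adjusted p = 0.0692 by edgeR) without replicate 2.

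Jund, a Jun protein present in resting cells, was at 190, 140.3 and 140.7 CPM in the TBHP libraries and at 149.6, 168 and 148.5 CPM in the TBHP+FGF21 libraries. TBHP replicate 1 was the highest of all 6, and the other libraries did not sort by group. Its log2 fold change was -0.01 with a 95% interval of -0.28 to 0.25. That value was 0.15 without TBHP replicate 1 and 0.01 under scaling by library size alone, so Jund has no direction here.

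Jun gave 55.4%, 59.3% and 59.9% of the counts of Jun and Jund in the TBHP libraries and 62.8%, 57.1% and 65.8% in the TBHP+FGF21 libraries. The groups overlapped through replicate 2. Summed counts of Fos, Fosb and Fosl1 per count of Jun and Jund were 0.234, 0.270 and 0.316 against 0.275, 0.302 and 0.289, with all TBHP+FGF21 libraries inside the TBHP range. Fosl2 and Junb are not part of this ratio.

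Atf3, a stress-induced factor that pairs with Jun proteins and often represses, was at 18.8, 16.2 and 15.7 CPM in the TBHP libraries and at 26.4, 16.5 and 17.3 CPM in the TBHP+FGF21 libraries. Only replicate 1 of the TBHP+FGF21 group was above the TBHP range. The log2 fold change of 0.25 (95% interval -0.13 to 0.62, unadjusted p = 0.175 by edgeR) was 0.01 without that library. Without replicate 2 it was 0.38, with an adjusted p of 0.158 by edgeR.

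**Figure D2:**
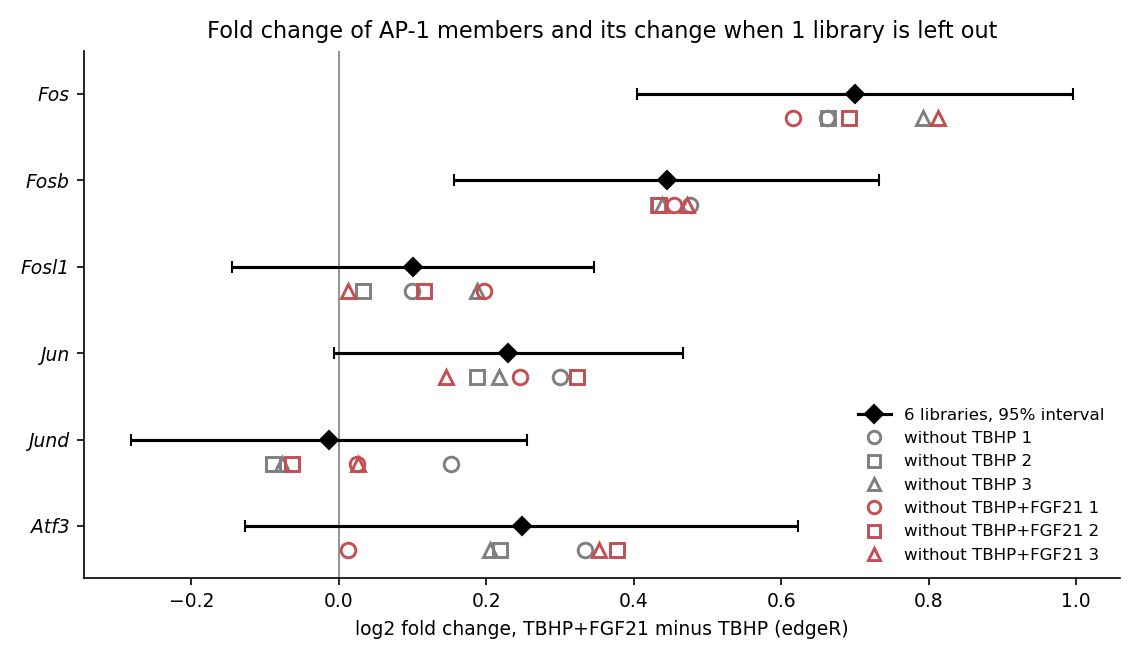
Log2 fold change of each AP-1 member, TBHP+FGF21 minus TBHP, by edgeR (horizontal axis) with its 95% interval over 6 libraries (black diamonds and bars) and its value when 1 library is left out (open symbols, grey for a TBHP and red for a TBHP+FGF21 library). Fos stays between 0.62 and 0.81 and Fosb between 0.43 and 0.48, whereas Atf3 falls to 0.01 without TBHP+FGF21 replicate 1 and Jund lies on both sides of 0.

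The member values were then read library by library against the TBHP mean on the log2 scale. TBHP+FGF21 replicate 1 was at 0.88 for Fos, 0.45 for Fosb, 0.23 for Jun and 0.65 for Atf3, above the TBHP range for these 4 members. Replicate 3 was at 0.47 for Fos, 0.40 for Fosb, 0.28 for Fosl1 and 0.40 for Jun, also above it for 4 members. Replicate 2 was at 0.74 for Fos and 0.48 for Fosb and inside the TBHP range for the other 4. Over all 11426 genes, 64.4% of values of replicate 2 were inside the TBHP range, against 38.6% for replicate 1 and 35.4% for replicate 3. Fos and Fosb were thus among the genes for which replicate 2 did not sit with the TBHP libraries.

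No marker sum separated the groups as Fos and Fosb did, although single markers did. The heat shock genes summed to 1401 to 1474 CPM in the TBHP libraries and to 1426, 1413 and 1530 CPM in the TBHP+FGF21 libraries. The proliferation genes summed to 307 to 365 CPM and to 328, 412 and 307 CPM. Among them the replication genes Mcm2 (67.6 to 72.8 CPM against 78.6 to 82.8 CPM) and Mcm5 (39.5 to 41.9 CPM against 43.2 to 47.0 CPM), named after their values were seen, were higher in every TBHP+FGF21 library, replicate 2 included. Ccna2 and Ccnb1 were below the TBHP range in replicates 1 and 3 and above it in replicate 2. Of the 8 proliferation genes 4 were higher and 4 lower, or 2 and 6 without replicate 2. The fibroblast marker Postn was lower in every TBHP+FGF21 library (192 to 222 CPM against 124 to 187 CPM). In replicate 2, where Fos and Fosb were high, the nucleus pulposus, fibroblast and heat shock sums lay inside the TBHP range and the proliferation sum above it. The part of these in the result was not tested.

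Strand does not separate these genes from transcripts on the opposite strand. Although the labels name a directional kit, 47.7% to 52.3% of the strand-assigned counts of each member fell in the same strand column. Reads of an antisense partner would therefore be counted in the values above.

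By root mean square difference of centred log2 CPM over the 6 libraries, the genes whose pattern was most like that of Fos were Tmtc1 (0.0854), Zkscan7 (0.138) and Ppil6 (0.144), where Fos itself deviated from its own mean by 0.377. Their log2 fold changes were 0.57, 0.63 and 0.62. For Fosb, which deviated by 0.225, the nearest were Cmtr2 (0.0781), Prkcz (0.0793) and Stk35 (0.0808), with log2 fold changes of 0.42, 0.37 and 0.31. With 6 libraries in 2 groups few patterns can be told apart, and likeness here is a description.

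The leucine zipper partners and repressors of AP-1, such as the Atf, Maf and Batf factors, showed no common direction. Of 13 listed, 9 were tested, 4 with a higher and 5 with a lower mean level in TBHP+FGF21, none with an unadjusted p under 0.05. Their median log2 fold change was -0.05, beside -0.01 over all genes tested. Among the smallest p-values were those of Atf7 (log2 fold change 0.24) and Maff (-0.21), a small Maf protein without a transactivation domain. Leaving out 1 library moved Atf7 between 0.13 (without TBHP+FGF21 replicate 1) and 0.34 (without replicate 2) and Maff between -0.06 (without TBHP replicate 1) and -0.36 (without TBHP+FGF21 replicate 2).

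The MAP kinase pathway leads to the phosphorylation of Jun and of factors upstream of Fos. Of its 20 listed genes 17 were tested, 9 higher and 8 lower, and their median log2 fold change was 0.02. The kinase gene Map2k1, which encodes MEK1, was the 1 with an unadjusted p under 0.05. It was at 179.9, 182.7 and 168.6 CPM in the TBHP libraries and at 147.6, 164.5 and 138.3 CPM in the TBHP+FGF21 libraries, all lower. Map2k1 had a log2 fold change of -0.24 with 0.10 as standard error, and edgeR gave it an adjusted p of 0.553. Groups that did not overlap, with TBHP+FGF21 lower, made up 5.0% of all genes, and an unadjusted p under 0.05 with a lower level 4.29%. Rps6ka2 and Mapk3, which encode the kinases RSK3 and ERK1, followed with log2 fold changes of 0.23 each. Both depended on single libraries, at 0.14 without TBHP+FGF21 replicate 3 and at 0.34 without replicate 2, where their adjusted p-values were 0.0513 and 0.0509 by edgeR.

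The factors through which signals reach the Fos promoter, SRF, its ternary complex and MRTF partners, MEF2 and CREB with its co-activators, gave 10 genes higher and 4 lower of 14 tested. The median of their log2 fold changes was 0.09. An unadjusted p under 0.05 was found for 4, all higher, against 4.63% of all genes in that direction, and none passed the adjusted p. They were the CREB co-activators Crtc1, Crtc2 and Crtc3 and the SRF co-activator Mrtfa. Crtc3 was at 5.19, 5.03 and 5.81 CPM in the TBHP libraries and at 8.20, 6.84 and 7.85 CPM in the TBHP+FGF21 libraries, with no overlap and a log2 fold change of 0.51. It was 0.33 for Crtc2, 0.29 for Crtc1 and 0.30 for Mrtfa, whose groups overlapped. Without TBHP+FGF21 replicate 2, Crtc3, Crtc2 and Mrtfa passed (log2 fold changes 0.59, 0.46 and 0.43, adjusted p = 0.0414, 0.0193 and 0.0347 by edgeR), 3 of 14 where 3.78% of all genes were called as higher, and Crtc1 did not pass (0.29, adjusted p = 0.221 by edgeR). Without replicate 3, Crtc2 was at 0.22 and Mrtfa at 0.19.

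**Figure D3:**
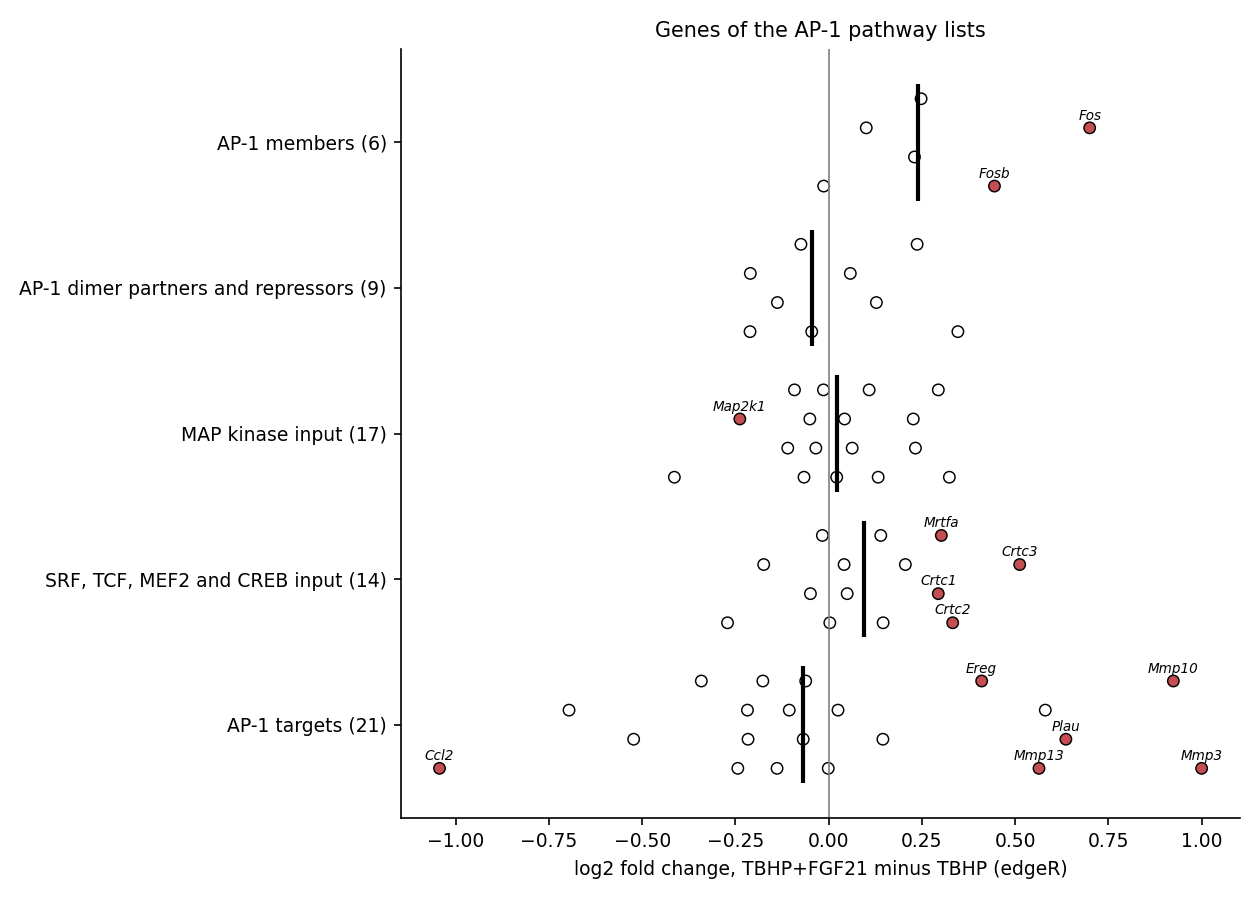
Log2 fold change by edgeR (horizontal axis) of each tested gene in the AP-1 family and in 4 lists of AP-1 partners, upstream factors and targets (rows, number tested in brackets, spread vertically for legibility), with the median as a black bar. Red points have an unadjusted p under 0.05, and the list of targets holds both the highest value (Mmp3, 1.00) and the lowest (Ccl2, -1.04).

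The genes known to be driven by AP-1 had values in both directions. Of 25 listed, 21 were tested, 8 with a higher and 13 with a lower mean level in TBHP+FGF21, and the median log2 fold change was -0.07. An unadjusted p under 0.05 was found for 5 higher genes, which encode the proteases Mmp3, Mmp10, Mmp13 and Plau and the growth factor Ereg, and for 1 lower, the chemokine gene Ccl2, where 4.63% of all genes had such a p with a higher level and 4.29% with a lower one. None passed the adjusted p with all 6 libraries.

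The stromelysin gene Mmp3 was at 17.8, 22.2 and 21.5 CPM in the TBHP libraries and at 40.4, 20.9 and 61.7 CPM in the TBHP+FGF21 libraries. Mmp10, the second stromelysin, was at 3.97, 3.36 and 3.09 CPM and at 5.69, 3.92 and 10.03 CPM. The collagenase gene Mmp13 was at 16.1, 15.1 and 16.3 CPM and at 24.4, 14.3 and 31.5 CPM. All 3 were high in replicates 1 and 3 of the TBHP+FGF21 group and at or below the top of the TBHP range in replicate 2. Plau, the urokinase gene, was at 108, 119 and 129.9 CPM and at 184, 122 and 248.7 CPM, the same order. Ereg, which encodes epiregulin, was at 8.32, 9.70 and 7.83 CPM and at 13.5, 9.33 and 11.6 CPM. Ccl2, which encodes the monocyte attractant MCP-1, was at 7.15, 7.62 and 6.89 CPM and at 2.04, 6.65 and 1.87 CPM, low in replicates 1 and 3 and just under the TBHP range in replicate 2.

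With all libraries the log2 fold changes were 1.00 for Mmp3, 0.92 for Mmp10, 0.56 for Mmp13, 0.64 for Plau, 0.41 for Ereg and -1.04 for Ccl2, each with an adjusted p of 0.553 by edgeR. These values depended on the libraries used. With TBHP+FGF21 replicate 3 left out they were 0.59 for Mmp3, 0.48 for Mmp10, 0.29 for Mmp13, 0.37 for Plau, 0.41 for Ereg and -0.73 for Ccl2. Without replicate 2 they were 1.32 for Mmp3, 1.197 for Mmp10, 0.83 for Mmp13, 0.87 for Plau, 0.55 for Ereg and -1.87 for Ccl2, with adjusted p-values from 5.26e-05 to 0.0421 by edgeR, where 7.5% of all genes were called. These are the genes for which replicate 2 lay near the TBHP libraries and the other replicates away from them, so leaving it out had to enlarge their values. Of the 21 tested targets, 9 passed without replicate 2, 6 higher and 3 lower.

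For 16 of 21 targets, 76.2%, replicate 2 was inside the TBHP range, beside 64.4% of all genes and 4 of the 6 AP-1 members, so the share among the targets is near the background. Of 8 nucleus pulposus markers tested, 4 were higher and 4 lower. Acan, Pax1 and Sox9 were, like the proteases, high in replicates 1 and 3, whereas Krt8, a keratin, was below the TBHP range in all 3 TBHP+FGF21 libraries. The part of these in the targets' values was not tested.

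**Figure D4:**
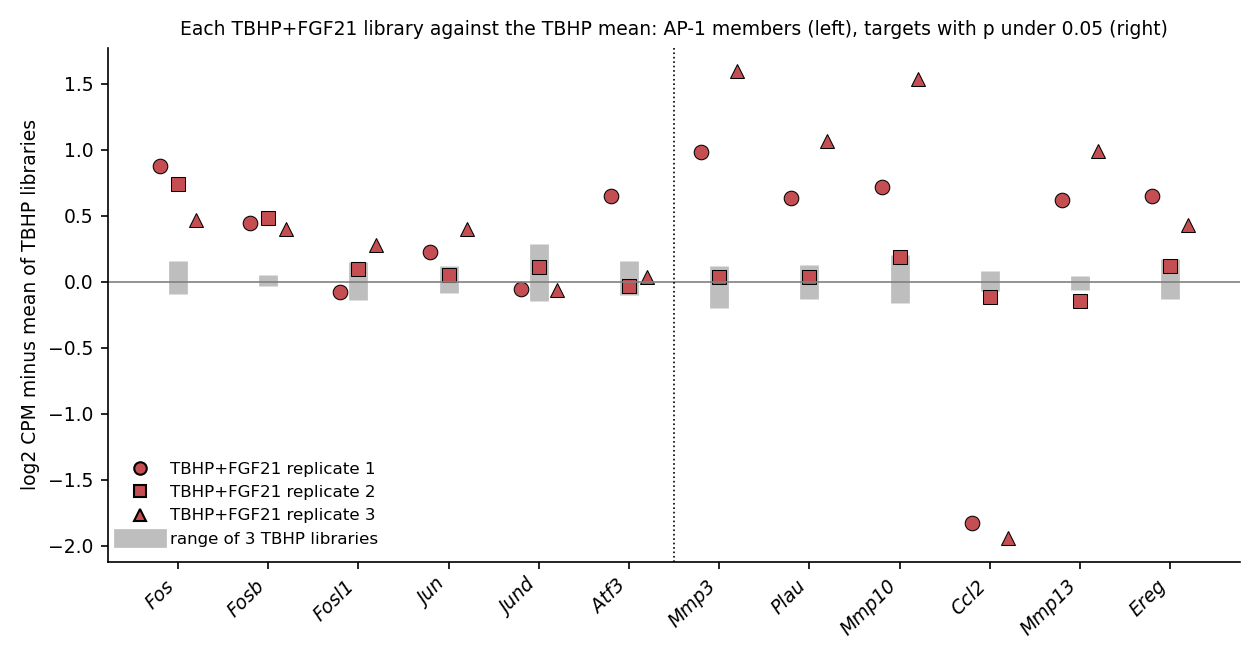
Log2 CPM of each TBHP+FGF21 library minus the mean log2 CPM of the TBHP libraries (vertical axis) for the 6 AP-1 members and, right of the dotted line, the 6 listed targets with an unadjusted p under 0.05, with grey bars for the range of the 3 TBHP libraries. Replicate 2 (squares) is at 0.74 for Fos and 0.48 for Fosb but near 0 for Mmp3, Mmp10, Mmp13, Plau and Ereg, while replicates 1 and 3 are away from 0 in all of these.

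The sequence that AP-1 binds was looked for in the 250 bases before each gene's start, from RefSeq's GRCr8 promoters. The TRE, the classical Fos-Jun site, was searched as TGACTCA on both strands, which also finds TGAGTCA, and is present in 3.98% of 27457 promoters. Of the 18 targets with a promoter in the table, 8 hold a TRE (Mmp1, Mmp3, Mmp10, Mmp12, Mmp13, Plaur, Il11 and Mt2A) or 44.4%. The targets were listed because AP-1 is known to act on them, so this share is no finding of these data. The sites of the 3 among these with an unadjusted p under 0.05 are given 5′ to 3′ on the strand of the gene, with the TRE in capitals and 20 bases on either side.
Mmp3, chr8:12925190-12925236, plus strand: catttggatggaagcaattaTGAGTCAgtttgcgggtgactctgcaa
Mmp10, chr8:12974626-12974672, plus strand: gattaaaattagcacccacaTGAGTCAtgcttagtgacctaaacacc
Mmp13, chr8:12782743-12782789, plus strand: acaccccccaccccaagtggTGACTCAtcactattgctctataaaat

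These sites lie 71 to 65, 61 to 55 and 66 to 60 bases before the start of Mmp3, Mmp10 and Mmp13. The TRE lies 83 to 77 bases before the start of Plaur, 142 to 136 before Il11 and 237 to 231 before Mt2A. In Mmp1 and Mmp12, which were not tested, it lies 84 to 78 and 87 to 81 bases before the start. Of 6 tested targets with a TRE, 3 were higher (Mmp3, Mmp10 and Mmp13, each with an unadjusted p under 0.05) and 3 lower without such a p, Plaur at -0.24, Il11 at -0.52 and Mt2A at -0.22 on the log2 scale. Over all genes, the median log2 fold change was -0.02 for 278 tested genes with a TRE and -0.005 for 8945 without, and an unadjusted p under 0.05 was found for 10.8% and 8.62% of them. With a higher level in TBHP+FGF21 it was found for 7.19% of genes with a TRE and for 4.47% without. Mmp3, Mmp10 and Mmp13 are among the former. Without TBHP+FGF21 replicate 2 these shares were 12.8% and 11.4%. The difference between the shares was not tested.

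Of the members, Fosb, Fosl1, Fosl2, Junb and Jund have a promoter in the table, and none of the 5 holds a TRE in this window. Jund holds the related CRE, searched as TGACGTCA on both strands and present in 1.70% of promoters, 221 to 214 bases before its start. The CRE, which CREB and Jun-Atf dimers are known to bind, is in capitals as the 1 site of either kind found in a member.
Jund, chr16:18769965-18770012, minus strand: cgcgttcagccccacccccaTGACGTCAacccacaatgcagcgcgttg

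A match is a description of the letters in this window and not a measured binding site.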

How the data were processed

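The authors deposited raw read counts for each library, unstranded and per strand, and a combined table of raw counts per gene symbol. The submitters' processing notes name STAR and featureCounts, and the genome build is not given in the sources used here. The combined table was treated as a table of estimated counts because 22 of the rows the authors deposited hold values that are not whole, which were rounded up. Identifiers were linked to symbols by identical counts. All 6 columns of the combined table were used. Neither library sizes nor tests include reads that were not mapped (1.24% to 1.40% per library), that mapped to several places (6.27% to 7.02%), that lay outside any gene (9.13% to 10.4%) or that were ambiguous between genes (1.72% to 2.09%).

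Groups were compared with edgeR 4.0.16 in R 4.3.3 (TMM, filterByExpr with a minimum count of 10 and a minimum total of 15, group as the only term, quasi-likelihood F-test, Benjamini-Hochberg adjustment over 11426 genes). At these depths 3 counts correspond to 0.134 to 0.164 CPM, which covers counting error only. Standard errors, intervals at 95% and exact permutation tests of the library labels (20 arrangements) are two-sided. Fits were tested on simulated data. With all 6 libraries, edgeR recovered 48 of 100 changes of log2 0.5 and 99 of 100 changes of log2 1, with 9 false calls. The simulation used the trended dispersion, without the spread of single genes around it or a library such as TBHP+FGF21 replicate 2. These counts therefore do not give the sensitivity in the real libraries. Alternatives were the per-sample counts, other scalings and filters, the DESeq2 1.42.0 Wald test, limma-voom (limma 3.58.1), the replicate number as a block, and leaving out each library.

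The members, gene lists and tests were chosen with earlier results of these data known, so no list is independent evidence. Named were all members, every list gene with an unadjusted p under 0.05 or, where fewer than 3, the 3 smallest, and the 3 genes nearest to each member with such a p. Marker lists are given as sums. Other genes named were chosen after their values were seen. The result of 1 gene that this rule names is not reported here.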

Additional observations from a re-analysis of the deposited data

How the results depend on the processing

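Fos and Fosb had an unadjusted p under 0.05 and the same direction in all 16 alternatives, and Fosl1, Jun and Atf3 kept their direction and passed no adjusted threshold. The direction of Jund, near 0, turned to 0.027 on the log2 scale with strand column 4 and to 0.010 with library size alone, and ran from -0.089 to 0.152 when 1 library was left out. Genes past the adjusted threshold, 1 with all libraries, numbered 0 with the unstranded per-sample counts, with strand column 3, with strand column 4 and with limma-voom (1082, 956, 1049 and 996 genes with an unadjusted p under 0.05), 4 with the DESeq2 Wald test, 5 over every gene with a count, 2 with the replicate block, and 0 to 867 leaving out 1 library. Members called went from 0 to 1 with the DESeq2 Wald test (Fos) and ran from 0 to 1 leaving out 1 library, the 1 being Fos without TBHP+FGF21 replicate 2. Genes with an unadjusted p under 0.05, 1019 in all, numbered 1599 with the replicate block and 337 to 2732 leaving out 1 library, lowest without TBHP replicate 2. Members with an unadjusted p under 0.05 ran from 2 to 4 and called genes of the pathway lists from 0 to 12 leaving out 1 library, the highest of each without TBHP+FGF21 replicate 2. The causes were not tested.

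The replicate numbers were not taken to pair the libraries, since no source says that they mark a shared culture. Deviations of same-numbered libraries from their group means correlated at -0.11, 0.19 and 0.14, and those of differently numbered ones at -0.25 to 0.17. These values do not decide whether the libraries were paired. With the replicate block the adjusted p of Fos was 0.103 by edgeR. Sensitivity to changes as small as that of Jun was not tested.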
